A study of Homo sapiens with 6 samples.

Results

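The transcripts of 7 S100 calcium-binding proteins (S100A8, S100A9, S100A12, S100A4, S100A6, S100A11 and S100P) were followed in NB4 cells. They are the rows of a given list of S100 genes found in either deposited count table, 7 of the 13289 genes that the tables list. S100A9, S100A4, S100A6, S100A11 and S100P were in both tables, and S100A8 and S100A12 were in the ATRA table only. NB4 is an established human line of acute promyelocytic leukemia cells, which can be pushed to mature along the granulocyte path by the vitamin A derivative ATRA (all-trans retinoic acid). The groups were cells with hairpin 1 or hairpin 2 against SMARCD2, a subunit of the BAF chromatin remodelling complex, in 1 µM ATRA, cells with the control construct in ATRA, and the same 3 constructs in the vehicle DMSO. That made 6 libraries, 2 knockdown libraries and 1 control library per treatment. The labels do not say whether libraries came from separate cultures, so p-values measure only the spread between these libraries. How long cells were kept in ATRA is not stated in those labels.

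S100 proteins are small proteins of the EF-hand family that mostly work as dimers and change shape when they bind calcium. S100A8 and S100A9 pair as calprotectin, an abundant complex of the neutrophil cytosol, which binds zinc and manganese away from microbes and acts on Toll-like receptor 4 when it is released. S100A12 is a related protein of neutrophils, also released and known as a ligand of the receptor RAGE (gene AGER). S100A4, S100A6 and S100A11 are made in many cell types. They and S100P bind partners such as myosin, annexins and ezrin.

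Promoter sequences are shown for the calprotectin pair and S100A12, which rose or were listed under ATRA only, for S100P, which rose, and for S100A4 and S100A6, which fell. Each is the 250 bases before a transcript start in the RefSeq promoter table (GRCh38.p14), written 5′ to 3′ on the gene's strand in lower case, with the motif TATAAA in capitals. The count tables name genes only and were made on GRCh37.p13, so these coordinates belong to RefSeq and not to the counts. S100A8 has 3 starts in the table. The middle one is printed, chosen after the windows were read because it holds the motif near its end.
S100A9 (chr1:153357604-153357853, plus strand): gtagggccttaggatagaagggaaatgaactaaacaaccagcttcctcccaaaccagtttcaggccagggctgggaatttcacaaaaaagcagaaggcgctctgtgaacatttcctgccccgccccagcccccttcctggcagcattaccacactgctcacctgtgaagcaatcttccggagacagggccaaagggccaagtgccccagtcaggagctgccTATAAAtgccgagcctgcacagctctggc
S100A8 (chr1:153391074-153391323, minus strand): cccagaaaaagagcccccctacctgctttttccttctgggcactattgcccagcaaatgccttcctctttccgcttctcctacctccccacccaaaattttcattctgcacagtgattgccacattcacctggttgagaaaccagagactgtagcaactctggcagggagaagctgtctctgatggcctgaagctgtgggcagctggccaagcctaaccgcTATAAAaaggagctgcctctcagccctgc
S100A12 (chr1:153375622-153375871, minus strand): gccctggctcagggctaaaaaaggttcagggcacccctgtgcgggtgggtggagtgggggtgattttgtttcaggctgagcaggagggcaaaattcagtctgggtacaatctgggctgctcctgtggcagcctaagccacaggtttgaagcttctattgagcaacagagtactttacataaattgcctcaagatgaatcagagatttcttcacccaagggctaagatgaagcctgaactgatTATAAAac
S100P (chr4:6693628-6693877, plus strand): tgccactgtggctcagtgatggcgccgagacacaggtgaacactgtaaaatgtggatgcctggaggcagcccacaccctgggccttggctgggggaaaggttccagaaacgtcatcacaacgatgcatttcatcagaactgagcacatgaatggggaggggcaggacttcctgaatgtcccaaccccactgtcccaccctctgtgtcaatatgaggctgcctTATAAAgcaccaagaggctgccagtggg
S100A4 (chr1:153545807-153546056, minus strand): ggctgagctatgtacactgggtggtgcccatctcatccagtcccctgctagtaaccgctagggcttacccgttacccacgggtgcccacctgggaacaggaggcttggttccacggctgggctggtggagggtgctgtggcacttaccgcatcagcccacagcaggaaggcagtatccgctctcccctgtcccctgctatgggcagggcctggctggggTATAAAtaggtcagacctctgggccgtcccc
S100A6 (chr1:153535992-153536241, minus strand): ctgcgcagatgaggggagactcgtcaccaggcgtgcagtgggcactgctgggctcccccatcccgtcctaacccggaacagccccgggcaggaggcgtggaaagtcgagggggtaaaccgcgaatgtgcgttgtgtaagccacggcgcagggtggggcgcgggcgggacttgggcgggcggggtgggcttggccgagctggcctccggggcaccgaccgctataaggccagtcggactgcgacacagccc

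The motif TATAAA lay at positions -29 to -24 before the start of S100A9 and of the printed S100A8 start, at -28 to -23 in S100P, at -31 to -26 in S100A4 and at -8 to -3 in S100A12. It was not in the windows of S100A6 and S100A11. Over all promoter windows of the same length, 10.7% of 35116 hold TATAAA on either strand. The motif TTNCNNAA, a loose form of the C/EBP site, occurred in the windows of S100A9, S100A8, S100A12, S100P, S100A6 and S100A11 and in 33.2% of all windows. GAGGAA, a core that PU.1 can bind, occurred in the windows of S100A9 and S100A8 and in 23.6% of all. Of the core motifs of retinoid receptors, AGTTCA occurred in S100A9 and S100A12 and in 8.80% of all windows, and AGGTCA occurred in S100A4 and in 12.1%. Both strands were searched, and no hits overlapped within a window. TATAAA and TTNCNNAA were each found before members that rose and members that fell, and a match does not show that a factor binds there.

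Library totals ran from 29291209 to 58099733 counts, each the sum of 2 count columns taken as sequencing runs of 1 library. Run 1 gave 70.6% to 80.7% of the knockdown libraries but 53.1% to 54.7% of the control libraries, so the mix of runs differed between knockdown and control. SMARCD2 stood at 64.2 and 35.6 CPM (counts scaled to library size, with TMM factors) with hairpins 1 and 2 in ATRA, against 122 CPM with the control construct, and at 39.0 and 25.7 CPM in DMSO, against 95.5 CPM. Thus 4 of 4 knockdown libraries held less SMARCD2 than their control, and hairpin 2 the least. Of 6 promyelocyte markers, 5 were listed in ATRA and 6 in DMSO, with summed levels of 4666 to 6352 CPM in ATRA libraries and 10180 to 10410 CPM in DMSO libraries, where MPO made up most of the sum. Of the 5 tested, 3 were lower in ATRA (MPO at -0.97, AZU1 at -0.97 and CTSG at -4.07 on the log2 scale) and 2 were higher (PRTN3 at 2.58 and CD33 at 0.23). ELANE, a defining promyelocyte gene, was listed in DMSO only, at 0.0829 to 0.615 CPM. Erythroid markers (HBB, HBA1, HBA2) were listed in neither table, and of 5 keratinocyte markers only KRT10 was listed, at 7.68 to 9.89 CPM in ATRA and 6.63 to 7.45 CPM in DMSO.

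S100A9 was among the most abundant transcripts of these cells in ATRA and close to the lower limit of the count table in DMSO. S100A9 stood at 623 CPM with hairpin 1, 442 CPM with hairpin 2 and 606 CPM with the control construct in ATRA, against 0.614, 0.479 and 0.292 CPM in DMSO. Every ATRA library was far above every DMSO library. S100A9 averaged 557 ± 100 CPM in ATRA and 0.462 ± 0.162 CPM in DMSO (SD, n = 3 each), a log2 fold change of 10.11 ± 0.22 (SE; adjusted p = 4.6e-09, edgeR quasi-likelihood test with Benjamini-Hochberg adjustment). The DMSO levels rest on 37, 21 and 9 counts. Their 95% Poisson intervals were 0.432 to 0.846, 0.296 to 0.732 and 0.134 to 0.554 CPM, which cover counting error only. Per construct the log2 ratio of ATRA to DMSO was 9.99 with hairpin 1, 9.85 with hairpin 2 and 11.02 with the control construct, whose DMSO level was the lowest. Fewer cells of a type and less RNA per cell cannot be told apart in these bulk libraries.

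S100A8, the partner of S100A9 in calprotectin, was listed in the ATRA table only. It stood at 131 CPM with hairpin 1, 89.1 CPM with hairpin 2 and 108 CPM with the control construct in ATRA, a mean of 109 ± 21.1 CPM (SD, n = 3). S100A12 was also listed in the ATRA table only, at 5.60, 3.70 and 4.82 CPM, a mean of 4.71 ± 0.957 CPM. For both genes hairpin 2 gave the lowest and hairpin 1 the highest level. With no DMSO value, no fold change can be given for either. The smallest total count of any gene listed is 22 in the DMSO table and 12 in the ATRA table, and the filter behind this is not stated.

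**Figure D1:**
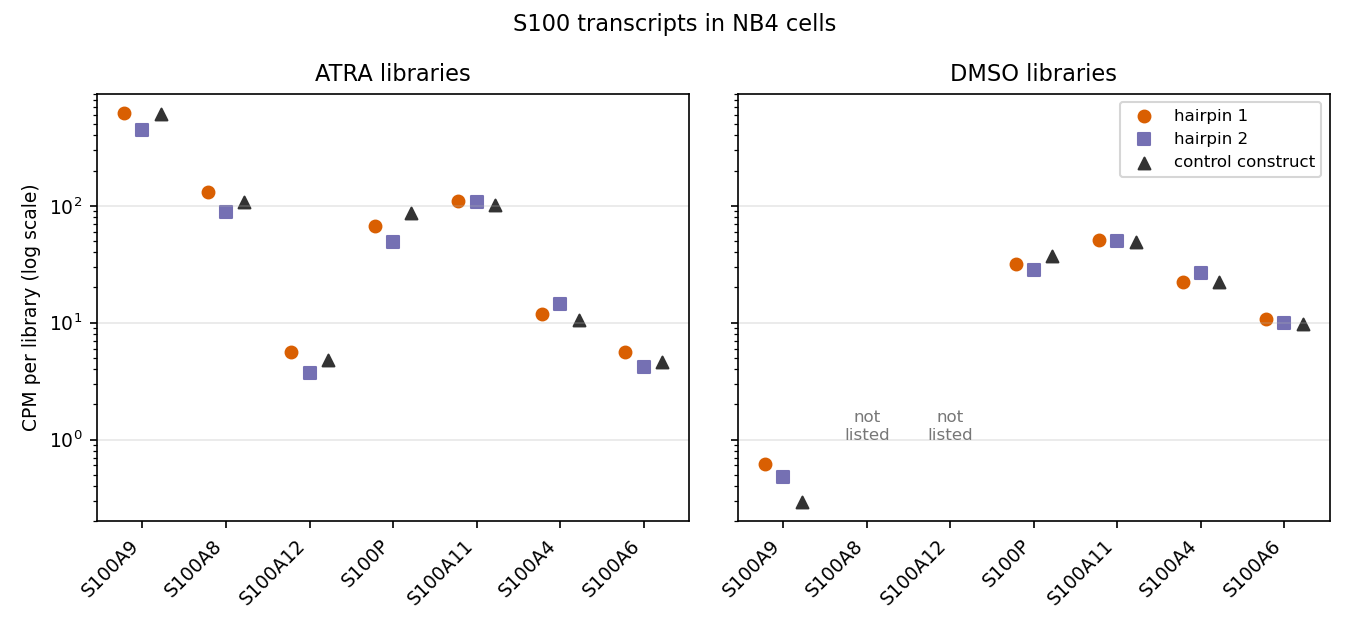
Level of each S100 transcript in each library, in CPM on a log axis, with ATRA libraries in the left panel and DMSO libraries in the right panel and 1 point per library (hairpin 1, hairpin 2, control construct). S100A9 lies at 442 to 623 CPM in ATRA and 0.292 to 0.614 CPM in DMSO, S100A8 and S100A12 are not listed in DMSO, and S100P and S100A11 are higher and S100A4 and S100A6 lower in ATRA than in DMSO.

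S100P, an S100 protein known for binding ezrin, and S100A11, known for binding annexin A1, rose. S100P stood at 67.3, 49.5 and 86.4 CPM with hairpin 1, hairpin 2 and the control construct in ATRA, against 31.5, 28.03 and 37.5 CPM in DMSO, a log2 fold change of 1.05 ± 0.12 (adjusted p = 4.6e-05). Its ATRA libraries were spread more widely than its DMSO libraries, yet the lowest of them was above the highest DMSO library. S100A11 was at 109, 109 and 101 CPM in ATRA, against 51.0, 50.4 and 49.1 CPM in DMSO (log2 fold change 1.08 ± 0.04, adjusted p = 1.1e-07), with the constructs close together in both treatments. The log2 ratio of ATRA to DMSO was 1.10, 0.82 and 1.20 for S100P and 1.10, 1.11 and 1.04 for S100A11, in the order hairpin 1, hairpin 2 and control.

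S100A4, a regulator of nonmuscle myosin, and S100A6, known as calcyclin, fell. S100A4 stood at 11.9, 14.3 and 10.5 CPM in ATRA, against 22.3, 26.7 and 22.3 CPM in DMSO (log2 fold change -0.96 ± 0.11, adjusted p = 5.1e-05). S100A6 stood at 5.62, 4.19 and 4.64 CPM in ATRA, against 10.7, 9.89 and 9.80 CPM in DMSO (log2 fold change -1.07 ± 0.13, adjusted p = 9.7e-05). Neither gene's groups overlapped. This also held for S100A1, another S100 gene, which was not called (2.15 to 2.94 CPM in ATRA, 3.12 to 3.70 CPM in DMSO). The share of all genes without overlap was not counted, so its absence does not mark these members out. In all, 5 of the 5 members tested passed the threshold of adjusted p under 0.05, 3 higher and 2 lower in ATRA. Of all 12301 genes tested 74% were called, 36.2% higher and 37.8% lower, so a call is common here. The median log2 fold change was 1.05 over the 5 members and -0.01 over all genes. With library totals in place of TMM, the median of all genes shifted by -0.13 and 3637 genes were higher and 5722 lower, against 4450 and 4650 with TMM. All 5 tested members kept their direction and call under that scaling.

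Seen per kilobase of exon (GENCODE v29 union length), S100A9 in ATRA was at 965 ± 174 CPM per kb (SD, n = 3), rank 18 to 37 among 12483 genes. S100A11 followed at 179 ± 7.71 and S100A8 at 170 ± 32.8 CPM per kb, with overlapping ranges. S100P was at 52.9 ± 14.4, S100A4 at 14.8 ± 2.32, S100A12 at 9.09 ± 1.84 and S100A6 at 5.69 ± 0.864 CPM per kb. The ranges of S100P, S100A4, S100A12 and S100A6 did not overlap each other. S100A9 stood 5.29, 5.52 and 6.28 times above S100A8 per kilobase with hairpin 1, hairpin 2 and the control construct (5.70 ± 0.515, SD). S100A8 stood 18.9, 19.4 and 18 times above S100A12. In DMSO the order was S100A11 at 84.4 ± 1.57, S100A4 at 28.8 ± 3.10, S100P at 25.3 ± 3.74, S100A6 at 11.97 ± 0.594 and S100A9 at 0.800 ± 0.280 CPM per kb. S100A4 and S100P overlapped there. S100A9 made up 65.3%, 62.1% and 65.8% of the members' summed counts in ATRA, against 0.529%, 0.414% and 0.245% in DMSO.

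Of the 13 other S100 genes looked up, 5 were listed. S100B, best known from astrocytes, rose to 139, 161 and 111 CPM in ATRA, against 4.74, 5.88 and 5.32 CPM in DMSO (log2 fold change 4.71 ± 0.12, adjusted p = 9.5e-09). S100A10, the annexin A2 partner that does not bind calcium, fell to 6.75, 6.95 and 8.40 CPM in ATRA, against 34.4, 43.4 and 31.4 CPM in DMSO (-2.32 ± 0.14, adjusted p = 1.2e-06). S100A13 had a log2 fold change of -0.02 ± 0.12 (adjusted p = 0.90) and S100A1 of -0.37 ± 0.16 (adjusted p = 0.074). S100Z was listed in ATRA only, at 1.05, 2.29 and 1.56 CPM. In the RefSeq gene order of chromosome 1, S100A10 and S100A11 come first, then S100A9, S100A12 and S100A8 together, then S100A6, S100A4, S100A13 and S100A1. Calls in both directions were thus found within this run of genes, as they were over all genes. The 10 nearest listed non-S100 genes around S100A9, S100A12 and S100A8, of which TCHH lies between S100A11 and S100A9, held 8 tested genes with log2 fold changes from -0.34 (THEM4) to 0.35 (INTS3), 2 higher and 2 lower. Around S100P on chromosome 4, 8 tested neighbours ran from -3.31 (STK32B) to 1.498 (CCDC96), with 4 higher and 2 lower.

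**Figure D2:**
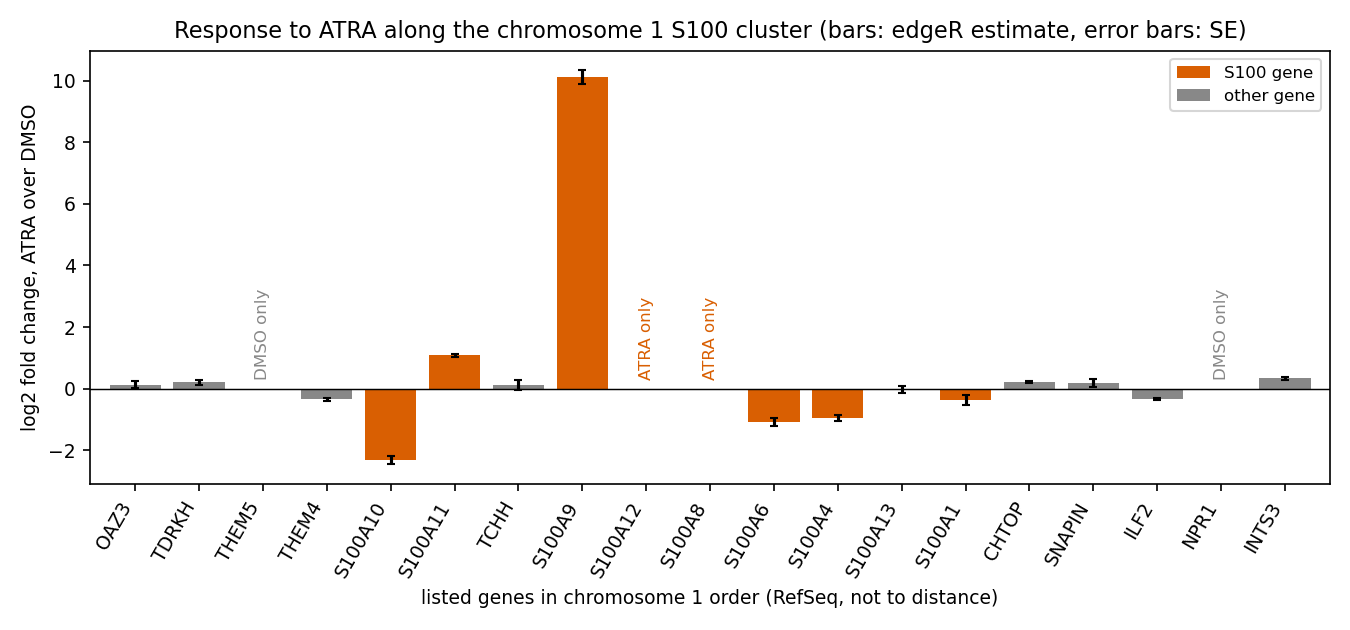
Log2 fold change of ATRA over DMSO with its SE for listed genes in chromosome 1 order, equally spaced and not to distance, S100 genes in orange and neighbours in grey. S100A9 stands at 10.11 among neighbours between -0.34 and 0.35, S100A10 at -2.32, and genes listed in 1 treatment only are named as such.

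Known receptors of S100 proteins were called in both directions, as were genes at large (36.2% of all genes tested higher and 37.8% lower). Of 10 listed by name, 8 were tested, 5 were higher and 3 lower, with a median log2 fold change of 0.77, against -0.01 over all genes. CD36, a scavenger receptor, averaged 40.6 ± 4.78 CPM in ATRA and 2.04 ± 0.786 CPM in DMSO (log2 fold change 4.25 ± 0.21, adjusted p = 3.2e-07). LY96, the co-receptor of Toll-like receptor 4, averaged 1.32 ± 0.327 CPM in ATRA and 0.304 ± 0.0751 CPM in DMSO (2.14 ± 0.29, adjusted p = 1.8e-04). MCAM, an adhesion molecule that binds S100A8 and S100A9, fell to 1.23 ± 0.275 CPM in ATRA, against 26.1 ± 3.18 CPM in DMSO (-4.43 ± 0.12, adjusted p = 1.0e-08). BSG was nearest to 0, at -0.16 ± 0.05 (adjusted p = 0.022). AGER was not listed, and CD14, also a monocyte marker, was listed in ATRA only at 3.92, 5.31 and 3.97 CPM. Beside the rise of S100A9, 4 of 5 monocyte markers were listed in ATRA and 2 of 5 in DMSO, with summed levels of 230 to 249 CPM in ATRA and 317 to 354 CPM in DMSO. VCAN was in neither table, and the part of these markers in the S100 values was not tested.

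Among 11 intracellular partners, 7 were higher and 3 lower (median 0.35). Over all genes tested, 36.2% were higher and 37.8% lower, a share to set beside each list of this paragraph. CYBB, the membrane subunit of the phagocyte NADPH oxidase, which calprotectin helps to activate, averaged 2694 ± 138 CPM in ATRA and 82.4 ± 9.27 CPM in DMSO (log2 fold change 5.03 ± 0.09, adjusted p = 1.9e-09). ANXA1, the annexin partner of S100A11, averaged 84.2 ± 1.24 CPM in ATRA and 37.2 ± 5.28 CPM in DMSO (1.18 ± 0.09, adjusted p = 3.4e-06). ANXA2, the partner of S100A10, fell to 17.5 ± 2.29 CPM in ATRA, against 61.4 ± 13.4 CPM in DMSO (-1.82 ± 0.16, adjusted p = 1.1e-05). SUGT1 was nearest to 0, at -0.04 ± 0.06 (adjusted p = 0.54). Of 16 other EF-hand genes, 15 were tested, 6 were higher and 5 lower, with a median of -0.01. GCA (grancalcin, a neutrophil EF-hand protein) was at 3.46 ± 0.07, EFHD2 at 1.55 ± 0.05, CAPN2 at -1.55 ± 0.16 and CIB1, nearest to 0, at -0.01 ± 0.05. Of 10 transcription factors known to act on S100A8 and S100A9, 6 were higher and 3 lower (median 0.34), with CEBPE at 3.45 ± 0.09, CEBPB at 2.79 ± 0.08, KLF4 at -2.78 ± 0.23 and STAT3 nearest to 0 at 0.08 ± 0.06 (adjusted p = 0.26).

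**Figure D3:**
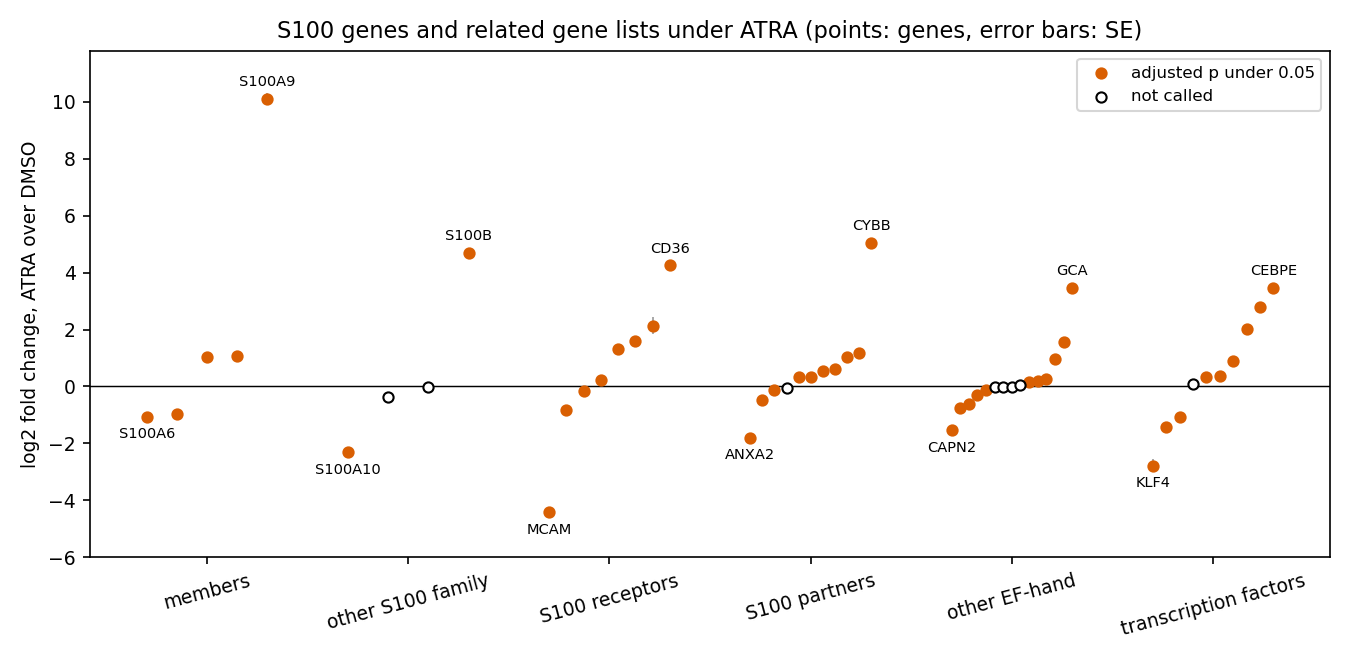
Log2 fold change of ATRA over DMSO with its SE for each tested gene of the S100 members, the other S100 genes, their receptors, intracellular partners, other EF-hand genes and transcription factors, filled where adjusted p was under 0.05. S100A9 at 10.11 lies above the largest values of the other lists, CYBB at 5.03 and S100B at 4.71, and calls in both directions are seen in every list.

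In the fit by group, knockdown of SMARCD2 gave no call for any S100 member in either treatment. That fit did not call SMARCD2 itself either (log2 fold change -1.29 ± 0.31, adjusted p = 0.32 in ATRA; -1.55 ± 0.32, adjusted p = 0.39 in DMSO), so a missing call here does not show that a gene was unchanged. In ATRA 0 of the 5 members were called, against 0.00813% of all 12301 genes, which is 1 gene, ENO2 (log2 fold change -1.68 ± 0.10, adjusted p = 0.0038), named after its value was seen. Without regard to adjustment, 1329 genes had p under 0.05, and DESeq2 called 52. The fit takes its spread from the hairpins and assumes that the lone control library varies like them. In ATRA, S100A9 had a log2 fold change of knockdown over control of -0.19 ± 0.17 (adjusted p = 0.71). Its log2 CPM ratio to the control was 0.04 for hairpin 1, or -0.003 and -0.02 within runs 1 and 2, and -0.46 for hairpin 2. Hairpin 1 was thus close to the control, and hairpin 2 below it. S100A8 and S100A12, fitted on the ATRA table alone (12837 genes, 0.00779% called), had log2 fold changes of 0.03 ± 0.19 (adjusted p = 0.97) and -0.05 ± 0.29 (adjusted p = 0.96). For these genes hairpin 1 was above the control (0.29 and 0.22) and hairpin 2 below it (-0.27 and -0.38).

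S100P was lower than the control in 4 of 4 knockdown libraries, but both hairpins of a treatment share 1 control library. How many of all genes were lower in 4 of 4 was not counted. The log2 ratios of S100P to the control were -0.36 with hairpin 1 and -0.80 with hairpin 2 in ATRA, and -0.25 and -0.42 in DMSO. The fitted values were -0.56 ± 0.16 in ATRA (adjusted p = 0.37) and -0.33 ± 0.17 in DMSO (adjusted p = 0.74), so neither passed. The ATRA value was -0.37 without hairpin 2 in ATRA and -0.80 without hairpin 1 in ATRA. With the construct as a replicate block it was -0.58, and that alternative did call S100P in ATRA. The authors' deposited table lists -0.45 in ATRA (adjusted p = 0.0010) and -0.27 in DMSO (adjusted p = 0.076) for S100P. For SMARCD2 the authors list -0.40 in ATRA and -0.96 in DMSO, where the fit by group gave -1.29 and -1.55. The authors' log2 fold changes may thus not be of like measure, so the S100P sizes should not be compared. At adjusted p under 0.05 the authors' values call 259 genes higher and 276 lower of 12091 in ATRA. In DMSO they call 104 higher and 42 lower of 11515. SMARCD2 is among the genes they call lower in both treatments. The authors' 12 normalized columns outnumber the 6 libraries, and runs may have been treated as samples there. For the other members the ATRA values were 0.32 ± 0.17 for S100A4 (adjusted p = 0.54), 0.08 ± 0.23 for S100A6 (adjusted p = 0.92) and 0.11 ± 0.06 for S100A11 (adjusted p = 0.57). Without hairpin 2 in ATRA, S100A4 was at 0.18.

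In DMSO 0 of 5 members were called, as were 0% of all genes (868 at p under 0.05; 38 by DESeq2). S100A9 was at 0.614 and 0.479 CPM with hairpins 1 and 2, against 0.292 CPM with the control construct, a log2 fold change of 0.92 ± 0.92 (adjusted p = 0.87). These levels rest on 37, 21 and 9 counts. With run 2 only the fitted value was 0.36, and the hairpin 2 ratio to the control was 0.97 in run 1 and -0.29 in run 2. S100A4 was at 0.13 ± 0.16 (0.28 without hairpin 1 in DMSO and 0.0083 without hairpin 2 in DMSO), S100A6 at 0.07 ± 0.20 and S100A11 at 0.04 ± 0.07 (adjusted p of 0.89, 0.96 and 0.92). No member was called when the ATRA response of knockdown cells was tested against that of control cells, 0 of 5 beside 0.0488% of all genes (6 genes, each lower; 979 at p under 0.05; 48 by DESeq2). Its values were -1.11 ± 0.92 for S100A9 (adjusted p = 0.79) and -0.23 ± 0.24 for S100P (adjusted p = 0.83), and 0.18 ± 0.23, 0.01 ± 0.30 and 0.06 ± 0.09 for S100A4, S100A6 and S100A11. The S100P value was -0.044 without hairpin 2 in ATRA and -0.47 without hairpin 1 in ATRA.

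**Figure D4:**
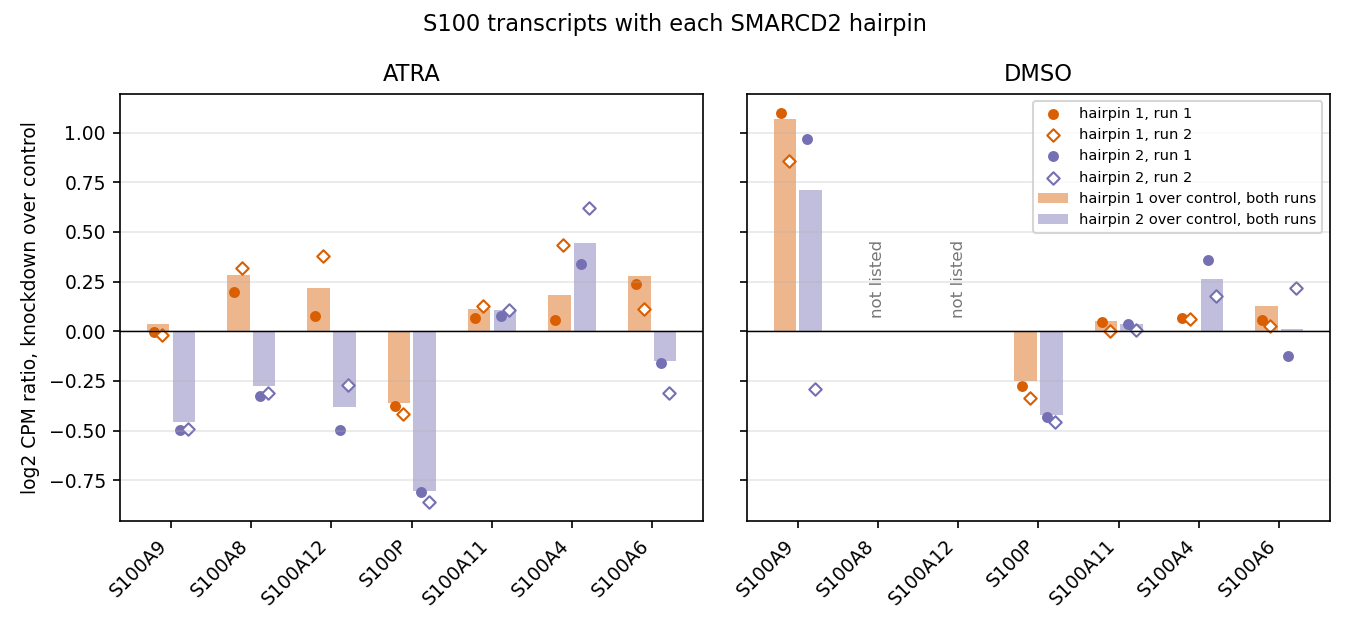
Log2 CPM ratio of each hairpin to the control construct for each S100 transcript, in ATRA (left) and DMSO (right), as bars from both runs summed, filled circles from run 1 and open diamonds from run 2. In ATRA, S100A9, S100A8 and S100A12 lie below 0 with hairpin 2, S100P lies below 0 with both hairpins in both treatments, and the S100A9 values in DMSO rest on few counts.

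The hairpins differed from each other in S100A9 and S100P. S100A9 had a log2 fold change of hairpin 2 over hairpin 1 of -0.49 ± 0.07 (adjusted p = 3.8e-04, 4 knockdown libraries with treatment as a term), in ATRA at 442 against 623 CPM and in DMSO at 0.479 against 0.614 CPM. The DMSO part rests on 21 against 37 counts with overlapping 95% Poisson intervals. Its log2 ratio was -0.13 in run 1 and -1.15 in run 2. In ATRA the ratio was -0.49 and -0.47 in runs 1 and 2, from 1 library per hairpin. S100P was lower by -0.31 ± 0.07 (adjusted p = 0.025), at 49.5 against 67.3 CPM in ATRA and 28.03 against 31.5 CPM in DMSO. So 2 of 5 members were called, both lower, and of all 12300 genes tested 2.03% were called, 1.3% higher and 0.732% lower. S100P missed the threshold with the DESeq2 test (adjusted p = 0.60) and with run 2 only (adjusted p = 0.079), while S100A9 passed in both. This fit has 1 residual degree of freedom. S100A4 was at 0.27 ± 0.09 (adjusted p = 0.17), S100A6 at -0.24 ± 0.14 (adjusted p = 0.54) and S100A11 at -0.01 ± 0.06 (adjusted p = 0.98). S100A8 and S100A12 were also lower with hairpin 2 in ATRA, by log2 ratios of -0.56 and -0.60 between 2 libraries, which were not tested. Of the 5 promyelocyte markers tested between hairpins 1 was called, PRTN3, with 411 CPM with hairpin 2 and 349 CPM with hairpin 1 in ATRA and 75.3 and 54.7 CPM in DMSO (0.35 ± 0.06, adjusted p = 0.0017). The others were at 0.07 for MPO (adjusted p = 0.46), 0.15 for AZU1 (adjusted p = 0.27), and -0.009 for both CTSG and CD33 (adjusted p of 0.99 and 0.98). The part of these markers in the S100 values was not tested.

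The runs gave unequal levels for several members. In ATRA the CPM of run 2 was below that of run 1 in 3 of 3 libraries for S100A8 (0.829 to 0.899 times), S100A9 (0.859 to 0.872), S100A12 (0.797 to 0.981), S100A6 (0.741 to 0.824), S100A11 (0.911 to 0.949) and S100P (0.898 to 0.929). S100A4 was below in 1 of 3. Since control libraries hold more of run 2, ratios were also taken within each run. Within runs, S100A9 with hairpin 2 over control in ATRA was -0.49 and -0.49 on the log2 scale. S100P with hairpin 2 over control in ATRA was -0.81 in run 1 and -0.86 in run 2. S100A6 with hairpin 2 over control in DMSO turned sign, at -0.13 in run 1 and 0.22 in run 2, as did S100A9 there.

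By the root-mean-square difference of centred log2(CPM + 0.5) profiles over the 6 libraries, the genes most like S100A9 among 9463 with a mean of at least 10 CPM were NCF1 (0.26), BPI (0.34) and FGR (0.41). They reach that mean through ATRA, with DMSO means of 3.58, 1.08 and 1.58 CPM. Their log2 fold changes were 9.57, 9.10 and 8.77, against 10.11 for S100A9. The added 0.5 CPM is near the DMSO mean of S100A9 (0.462 CPM) and shrinks its contrast in this measure. NCF1 reads can be shared with near-identical copies. Those most like S100A11 were CES2, ERAP1 and ARPC4 (0.02 to 0.03), and those most like S100P were OSCAR, ETS1 and GMDS (each 0.13). DIXDC1, STARD8 and PGM2L1 were closest to S100A4, and MIPEP, ZNF766 and FAM175A to S100A6. For S100A8 (C10orf105, CYP4F3, IFT57) and S100A12 (CYP4F3, IFT57, RBM7), only 3 libraries and 9348 genes could be compared.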

How the data were processed

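RNA-seq of 6 NB4 libraries was used. The submitters' processing notes name bcl2fastq, STAR, Picard 2.5.0, DESeq2 and the build GRCh37.p13. The counting tool and its strand setting are not given in the sources used. The authors deposited 1 table per treatment of raw counts per gene, not normalized, in 2 columns per library that were taken as sequencing runs and summed. For knockdown against control, a log2 fold change and a p-value by the authors are deposited beside the counts. Normalized copies in 12 further columns were left aside. The tables list 12838 genes in ATRA and 12752 in DMSO, with 12301 in both.

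Counts were filtered with filterByExpr, scaled with TMM and tested with edgeR 4.0.16 (R 4.3.3) by its quasi-likelihood test, with Benjamini-Hochberg adjustment over all genes and a threshold of 0.05. Fits across treatments used the genes in both tables, and S100A8 and S100A12 were fitted on the ATRA table alone. Each SE was derived from the log2 fold change and its F statistic. Summaries and figures came from pandas 2.3.3 and matplotlib 3.10.9 under Python 3.11.15. DESeq2 1.42.0 and limma 3.58.1 served as alternative tests. The fitting code was tested on simulated data. Members, lists and the rule for named genes (all members, every listed S100 gene, and in each other list the 3 largest calls under ATRA and the gene nearest to 0) were chosen with earlier results of these data known. Neighbours were the nearest 5 listed non-S100 genes on each side. Promoter windows came from the RefSeq table for GRCh38.p14, with all 7 members found. Some genes of the lists are not reported here.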

Additional observations from a re-analysis of the deposited data

Results flagged for a closer look

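S100A9 was flagged because it differed between the hairpins by a test of the difference, with a log2 fold change of hairpin 2 over hairpin 1 of -0.49 (adjusted p = 3.8e-04, edgeR quasi-likelihood test; lower with hairpin 2 in both treatments). S100P was flagged for the same reason, at -0.31 (adjusted p = 0.025; lower with hairpin 2 in both treatments). The S100A9 difference in DMSO rests on 21 against 37 counts with overlapping 95% Poisson intervals.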

How the results depend on the processing

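Of 319 values of members under an alternative, 302 kept their direction and their side of the threshold, among them all 70 for ATRA against DMSO. Some alternatives could hardly differ from the main fit, so this count overstates how firm the values are. In the fits on all 6 libraries the low-count filter removed no gene, and leaving it out returned the main values. Without the ATRA control, S100A9 for knockdown in DMSO was 0.9227, against 0.9222 in the main fit. Under ATRA the S100A9 log2 fold change ran from 9.90 to 10.45 when libraries were left out. With the construct as a replicate block, 1 member was called for knockdown in ATRA, S100P at -0.58 (adjusted p = 0.0017; -0.56 and 0.37 without it), and over all genes the block called 116 in DMSO, 348 in ATRA and 129 for the difference in response. Deviations of the constructs from their treatment's mean correlated between treatments with r = 0.19 for hairpin 1, 0.22 for hairpin 2 and 0.08 for the control. Each correlated best with its own construct (3 of 3), but deviations within a treatment sum to 0, so the matches are not independent. The same hairpins were in both treatments, so this cannot tell shared cells from a shared hairpin effect. The labels do not say that the same transduced cells were used. The hairpin comparison called 1 member with the DESeq2 test (S100P adjusted p = 0.60) and 1 with run 2 only (S100P adjusted p = 0.079). Signs turned for small values. S100A6 for knockdown was at -0.026 in DMSO with run 1 only, and at -0.088 in ATRA with run 2 only. Its difference in ATRA response was -0.0010 with the DESeq2 test, -0.0036 with limma-voom and -0.22 with run 2 only. S100A4's was -0.014 with run 1 only. S100A11 between hairpins was 0.0075 with library totals and 3.5e-06 with run 1 only. On the ATRA table alone, S100A8 was at -0.042 with run 1 only and S100A12 at 0.086 with run 2 only. Leaving out libraries, S100A6 ran from -0.15 (without hairpin 1 in ATRA) to 0.27 for knockdown in ATRA and from -0.22 to 0.19 for the difference, and S100A9 for knockdown in ATRA from -0.46 to 0.034 (without hairpin 2 in ATRA). S100A6 for knockdown in DMSO ran from 0.027 to 0.14, S100A4 and S100P for the difference from 0.033 to 0.31 and from -0.47 to -0.044, and S100A4 and S100P for knockdown in ATRA from 0.18 to 0.44 and from -0.80 to -0.37. The cause was not tested. Counts over all genes moved by over 1.5 times in DMSO (3 with run 2, 21 without hairpin 1 in DMSO), in ATRA (7 with run 2, 0 without either ATRA hairpin), for the difference (2 with limma-voom, 1 to 2 without a knockdown library), between hairpins (382 with DESeq2 size factors, 49 with DESeq2, 441 with limma-voom) and on the ATRA table alone (57 with DESeq2, 19 with run 1, 434 with run 2). Leaving out a hairpin library leaves the hairpin comparison no residual degree of freedom, and leaving out a control removes its treatment's knockdown contrast, so these were not run. The low S100A9 counts in DMSO limit what its knockdown values there can show.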
